A study of Caenorhabditis elegans with 2 samples.

Results

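The genes described here are protein-coding genes of Caenorhabditis elegans that make or use small RNAs, together with the genes for the machinery that transcribes piRNA genes, and the question is which of them carry a binding site of the zinc finger protein Y95B8A.8 (also named zfr-1). They were chosen by name from a list of 55, of which 53 are protein-coding genes of the WBcel235 annotation, out of 19973 on the nuclear chromosomes. The name prg-2 was left out because its gene is annotated as a pseudogene, and mut-2 and rde-3 are names of the same gene, called rde-3 here. Binding was measured by chromatin immunoprecipitation and sequencing with an antibody against GFP in whole young adults of strain RW12277 at 63 hours, grown from larvae starved after bleaching. These animals carry st12277, a CRISPR insertion on chromosome I that fuses Y95B8A.8 to TY1, EGFP and 3xFLAG at its own locus. There was 1 group with 2 biological replicates, both of this strain, and no second condition. Because the animals were taken whole, a site does not show in which tissue it was bound. No expression data were analysed here, so tissue markers could not be checked.

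Small RNAs guide Argonaute proteins to matching transcripts. In the worm germ line, piRNAs are transcribed from many separate short genes, loaded onto the PIWI protein PRG-1 after trimming and methylation, and used to mark foreign or unwanted transcripts. RNA-dependent RNA polymerases then copy the marked transcripts into secondary small RNAs in the Mutator foci at nuclear pores, and worm-specific Argonautes carry these for silencing in the cytoplasm, in the nucleus and across generations. MicroRNAs and RNAs cut by Dicer from double-stranded RNA use other Argonautes.

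A site is here a peak of the thresholded list called on both replicates (1694 peaks) whose summit lay within 1000 bp of a 5′ end of an annotated transcript of the gene, on assembly ce11. Of the 53 genes, 11 had a site (20.8%), against 6.46% of all protein-coding genes (1291 of 19973). These 11 were snpc-3.4, tofu-6, pid-5, csr-1, hrde-1, wago-4, alg-5, mut-15, rde-12, nrde-2 and ego-1, and together they had 14 sites. In this list each functional group had at least 1 gene with a site except the genes for entry and dicing of double-stranded RNA (0 of 6). That did not hold in the other lists. The genes for piRNA processing (0 of 4) and the RNA-dependent RNA polymerases with their cofactors (0 of 5) had none in the conservative list or in replicate 1. The genes of the Mutator foci and of target recognition had none in replicate 2 (0 of 11). The Argonautes that carry secondary small RNAs had 3 of 5, but 2 of 5 in the conservative list and 1 of 5 in the list of each replicate alone (csr-1 in replicate 1 and hrde-1 in replicate 2). Since the list was chosen with results of these data known, the share is given as a description with no test.

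The same count was made with the other thresholded lists. In the conservative list of both replicates 7 of the 53 genes had a site (13.2%), against 5.94% of all protein-coding genes. The genes tofu-6, csr-1, rde-12 and ego-1 had no site in that list. With the list of replicate 1 alone the count was 7 genes (13.2% against 3.06%), and with that of replicate 2 alone it was also 7 (13.2% against 3.1%). The genes of the single lists were not the same. Both held snpc-3.4, pid-5, alg-5 and nrde-2, that of replicate 1 alone csr-1, rde-12 and mut-15, and that of replicate 2 alone tofu-6, hrde-1 and ego-1. For wago-4 neither list held a peak. The peak of rde-12 in the list of replicate 1, 147 bp upstream, is not its site in the list of both replicates.

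**Figure D1:**
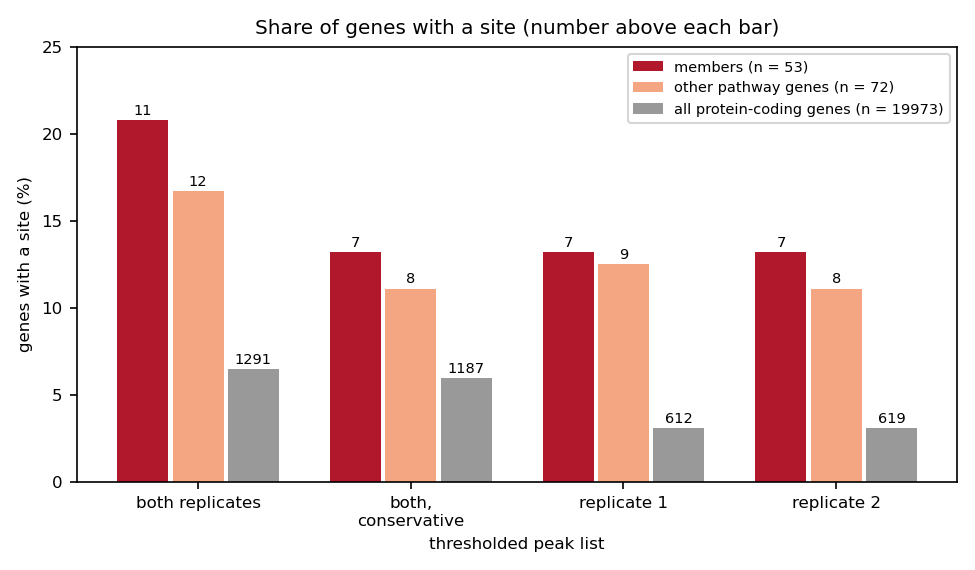
Share of genes with a site in each thresholded peak list, as a percentage of the 53 small RNA genes, of the 72 other pathway genes and of all 19973 protein-coding genes, with the number of genes above each bar. The 53 genes stand at 20.8% in the list of both replicates and at 13.2% in each of the other lists, above the grey bars of all genes (3.06% to 6.46%).

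Some features of the gene list differ from the average gene, and their part in the counts was not tested. More than 1 annotated 5′ end, and so a wider search, was found for 39.6% of the 53 genes and for 27.4% of all genes, and among all genes the share with a site was 9.84% with several 5′ ends and 5.19% with 1. Among the 53 genes, sites were found at 4 of 21 that have several and at 7 of 32 that have 1, counts too small to give a direction. The X chromosome, where 2.16% of genes had a site against 7.15% on the autosomes, holds only 2 of the 53, alg-1 and nrde-3, and neither had a site. Counted only where the gene's own 5′ end is the nearest to the summit, 8 of the 53 genes had a site (15.1%), against 4.76% of all genes.

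The sequences at 6 of these sites are shown because they are the strongest sites, on chromosomes whose sequence is printed here, that touch no annotated UTR within 50 bp of the summit, with 1 site for each gene. Each is read 5′ to 3′ on the strand of its gene, 101 bases centred on the summit, from the RefSeq genome sequence of WBcel235. Capitals mark a run of at least 7 T or the word GAGAGA, on either strand. Other words were searched as described in the next paragraph, and none of them is in these 6 windows. The windows are chrII:10248511-10248611 (minus strand) for nrde-2, chrIII:4019914-4020014 (plus) for snpc-3.4, chrV:15002289-15002389 (plus) for mut-15, chrIII:4176304-4176404 (minus) for hrde-1, chrII:5421098-5421198 (plus) for tofu-6 and chrIV:7958255-7958355 (plus) for csr-1.
nrde-2: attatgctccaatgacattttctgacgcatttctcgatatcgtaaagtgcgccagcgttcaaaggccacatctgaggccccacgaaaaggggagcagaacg
snpc-3.4: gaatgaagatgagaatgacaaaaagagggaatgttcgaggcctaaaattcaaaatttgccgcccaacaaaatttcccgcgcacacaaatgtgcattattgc
mut-15: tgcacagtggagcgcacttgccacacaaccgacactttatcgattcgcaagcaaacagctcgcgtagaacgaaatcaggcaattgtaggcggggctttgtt
hrde-1: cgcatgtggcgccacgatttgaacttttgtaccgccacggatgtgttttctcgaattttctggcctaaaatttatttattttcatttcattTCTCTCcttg
tofu-6: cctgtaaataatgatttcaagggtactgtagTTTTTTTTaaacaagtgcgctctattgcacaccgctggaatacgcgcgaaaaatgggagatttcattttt
csr-1: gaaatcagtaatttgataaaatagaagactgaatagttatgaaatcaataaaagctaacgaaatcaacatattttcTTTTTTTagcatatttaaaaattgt

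Words were searched on both strands, and overlapping matches were counted once for a window. A run of at least 7 T lay within 50 bp of 5 of the 14 summits (35.7%), against 10.3% of all 1694. In tofu-6 and csr-1 it is seen in capitals above, and csr-1 had the lowest GC content of the 14 windows, 20.8%. The median GC content of the 14 windows was 39.1%, against 45.5% over all 1694 peaks. GAGAGA was in 2 of the 14 (14.3% against 12.6%), 1 of them at hrde-1 as TCTCTC, and TTTTCAG, the usual splice acceptor word of this species, was in 1 (7.14% against 5.49%). The core of the upstream element of worm piRNA genes, searched as CTGTTTCA, was in 0 of the 14 windows and in 0.295% of all. The 14 summits were all picked for their nearness to the start of a gene. Of the 1694 peaks they are set against, only 1063 were that near to one. What part position had in the differences of words and GC content was not tested. These are counts of words in a window and not evidence of a bound motif.

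Values below are signals, the peak caller's measure of height, which are comparable only within 1 list. The list of both replicates and the single lists are on different scales, and the values of replicate 1 and replicate 2 come from their own ranked lists, from the peak whose summit was nearest to that of the site and within 100 bp. For a gene with no site they are its strongest ranked peak within 1000 bp of a 5′ end in each list, which need not be the same peak. The score of a peak follows from the irreproducible discovery rate, which measures how well ranks repeat between calls. It reaches 1000, and 830 stands for a rate of 0.01, the threshold. Sequencing depth is unknown, so signals carry no interval, and with 2 samples the spread is shown by both values.

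Among the genes for transcription of snRNA and piRNA genes, 1 of 8 had a site. This was snpc-3.4, which encodes a subunit of the small nuclear RNA activating complex (SNAPc). Its site (III, 4019935 to 4020046) had a signal of 182, rank 86 of 1694, and a summit 73 bp upstream of the 5′ end. The signal was 83.8 in replicate 1 and 105 in replicate 2, with a score of 1000 in each. It lay between protein-coding genes and was the only site among the 4 strongest of the 14 with no other gene's 5′ end within 1000 bp. The other 7 genes of this group had no site, and their strongest ranked peaks had signals of 25.7 to 39.1 in the list of both replicates. They include snpc-4 (37.7), the DNA-binding SNAPc subunit that acts at piRNA genes. Its partners in piRNA transcription are prde-1 (36.2), tofu-4 (36.1) and tofu-5 (32.4). For snpc-4 and prde-1 no ranked peak of replicate 2 lay within 1000 bp. The 3 homologs of a further subunit stood at 39.1 for snpc-1.1, 26.2 for snpc-1.3 (no ranked peak in replicate 1) and 25.7 for snpc-1.2. The median of the strongest peak over all protein-coding genes was 26.7.

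Of the 4 genes for piRNA processing, tofu-6 had a site, 100 bp upstream of its 5′ end (II, 5421003 to 5421292, signal 78.1, rank 864). TOFU-6 is part of PETISCO, the complex that binds piRNA precursors. It passed the threshold in replicate 2 only: the signal was 23.3 with a score of 57 in replicate 1, and 50.4 with a score of 1000 in replicate 2. The trimming enzyme gene parn-1 had a ranked peak of 54.4 that missed the threshold with a score of 765, and the piRNA methyltransferase gene henn-1 had 39.4. For pid-1, another PETISCO gene, no ranked peak of both replicates lay within 1000 bp.

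Of the PIWI gene prg-1 and the genes for 3 silencing cofactors, pid-5 had a site. PID-5 acts with PID-2 and PID-4 downstream of PRG-1. Its site (V, 4175689 to 4175978, signal 128, rank 235) lay 48 bp upstream of the nearest of its 4 annotated 5′ ends and 194 bp upstream of the divergent gene coh-4, which encodes a meiotic cohesin. Replicate 1 had a signal of 65.3 and replicate 2 of 49.7, with scores of 1000 and 850. The PIWI gene prg-1 itself had no site. Its strongest ranked peak, 39 bp downstream of the 5′ end, had a signal of 38.8 and a score of 397 (18.0 in replicate 1 and 20.3 in replicate 2). pid-2 stood at 42.9 and pid-4 at 34.8.

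The Argonautes of secondary small RNAs had sites at hrde-1, csr-1 and wago-4. HRDE-1 is the nuclear Argonaute of heritable silencing in the germ line, CSR-1 binds small RNAs against germ line-expressed genes, and WAGO-4 carries silencing between generations. At hrde-1 there were 2 sites. The stronger (III, 4176209 to 4176498, signal 89.1, rank 610) lay 195 bp upstream of hrde-1 and 86 bp upstream of the divergent gene C16C10.13, so it is closer to the latter, with 46.9 in replicate 1 (score 787) and 41.6 in replicate 2 (score 846). The weaker (signal 61.7, score 900) lay 966 bp upstream, inside a coding exon of C16C10.13, with 29.0 (score 488) and 29.3 (score 134). The site of wago-4 (II, 12919224 to 12919513, signal 64.8, score 883) lay 182 bp upstream, between it and F58G1.2, and the replicates had 30.0 (score 292) and 32.6 (score 413), both under the threshold. Of the sites of hrde-1 and wago-4, only the stronger of hrde-1 passed in a replicate, which was replicate 2.

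At csr-1 the 2 sites overlapped and lay inside the gene. Their summits were 308 and 108 bp upstream of the 5′ end of the shorter annotated transcript, in an intron of the longer transcripts and also in an intron of the overlapping gene frpr-10. The first (IV, 7958160 to 7958449) had a signal of 74.5. It passed the threshold in replicate 1 (50.5, score 943) and had no ranked peak within 100 bp in replicate 2. The second had a signal of 12, rank 1653 of 1694, with a score of 1000. Its signal was below the median of all ranked peaks of both replicates (19.9). The replicates had 11.8 (score 942) and 17.8 (score 155) there. With only the 5′ end of the whole gene considered, csr-1 had no site. The short and the long transcripts encode the isoforms CSR-1b and CSR-1a. No site was at wago-1, another germ line Argonaute (55.8, score 743), or at nrde-3, the nuclear Argonaute of the soma (23.5, below the median of all genes).

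Among the Argonautes of microRNAs and of primary small RNAs, 1 of 7 had a site. It was assigned to alg-5, a germ line microRNA Argonaute (I, 9988962 to 9989043, signal 154, rank 142), with 87.1 in replicate 1 and 67.6 in replicate 2 at a score of 1000 in each. The summit lay 828 bp upstream of alg-5 but 158 bp upstream of the histone gene his-68 and 211 bp upstream of his-67, so the site is closer to the histone genes. The main microRNA Argonaute gene alg-1 had a ranked peak of 59.2 with a score of 707, the highest signal of the genes with no site (32.2 in replicate 1 and 25.2 in replicate 2). Its paralog alg-2 stood at 32.3, the sperm Argonautes alg-4 and alg-3 at 41.5 and 22.7, ergo-1 at 37.7 and rde-1, the Argonaute of exogenous RNA interference, at 34.9.

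The RNA-dependent RNA polymerase genes differed among themselves. ego-1, the germ line polymerase, had a site 478 bp upstream (I, 7656727 to 7656855, signal 116, score 847, rank 292). The peak of replicate 1 had a signal of 50.4 and a score of only 50. In replicate 2 the peak nearest to the summit had a signal of 19.4 and a score of 48. Another peak of replicate 2, which overlapped the site and passed the threshold (61.1, score 1000), had its summit 357 bp upstream of the 5′ end. rrf-1, the polymerase gene that lies next to ego-1 on the same strand, had 45.6 (score 213), and rrf-3, which makes primary small RNAs, had 25.2. The genes for the helicase DRH-3 and the Tudor protein EKL-1, partners of these polymerases, had 29.2 and 46.4.

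Of the 11 genes of the Mutator foci and of target recognition, mut-15 and rde-12 had a site. MUT-15 is a core Mutator protein. Its site (V, 15002194 to 15002483, signal 94.7, rank 516) lay 204 bp upstream of mut-15 and 116 bp upstream of the divergent gene fib-1, which encodes fibrillarin. It passed the threshold in replicate 1 (66.8, score 1000) and not in replicate 2 (26.5, score 502). For the helicase gene rde-12 the site lay 702 bp upstream with a signal of 32.1 (score 844), and a taller ranked peak at 146 bp upstream (54.4) missed the threshold with a score of 806. The list of replicate 1 held its peak there (31.1, score 875). Of all 53 genes, rde-12 had the peaks nearest to the threshold on both sides, followed by ego-1 inside it (847) and mut-15 outside it (771). Below the threshold, znfx-1, a helicase of heritable silencing, had 52.5 (score 724), the nucleotidyltransferase gene rde-3 had a score of 650 and rde-2 had a signal of 48.2. The scaffold gene of the foci, mut-16, had 24.9 within 1000 bp and a peak of the thresholded list 5289 bp downstream, in its own coding sequence. mut-7 had 26.1, mut-14 29.3, rde-11 34.2, rde-8 21.6 and rde-10 18.2, the lowest of the genes with a ranked peak.

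nrde-2, whose product silences transcripts in the nucleus with those of nrde-1 and nrde-4, had the strongest site of the 53 genes and a second, weaker site. The strongest (II, 10248506 to 10248581, signal 231, rank 48) had 138 in replicate 1 and 94.2 in replicate 2. It lay 923 bp upstream of nrde-2 and 430 bp upstream of the divergent gene atad-3, which encodes a mitochondrial AAA ATPase, and so is closer to atad-3. The second (signal 67.4, rank 1207) lay 252 bp downstream of the 5′ end in a coding exon of nrde-2, with 36.8 and 39.6 in the replicates. nrde-4 stood at 33.3 and nrde-1 at 25.5.

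None of the 6 genes for double-stranded RNA entry and dicing had a site. The exonuclease gene eri-1 had 47.5 (score 532) at 156 bp downstream of a 5′ end. The strongest peak of replicate 2 was at the same position (39.9), whereas that of replicate 1 was another peak, 639 bp downstream (18.9). dcr-1, which encodes Dicer, had 44.2, the helicase genes drh-1 and eri-6 had 42.9 and 35.9, and sid-1, the channel for double-stranded RNA, had 30.6. For rde-4, which encodes the double-stranded RNA binding partner of Dicer, no ranked peak of any list lay within 1000 bp.

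**Figure D2:**
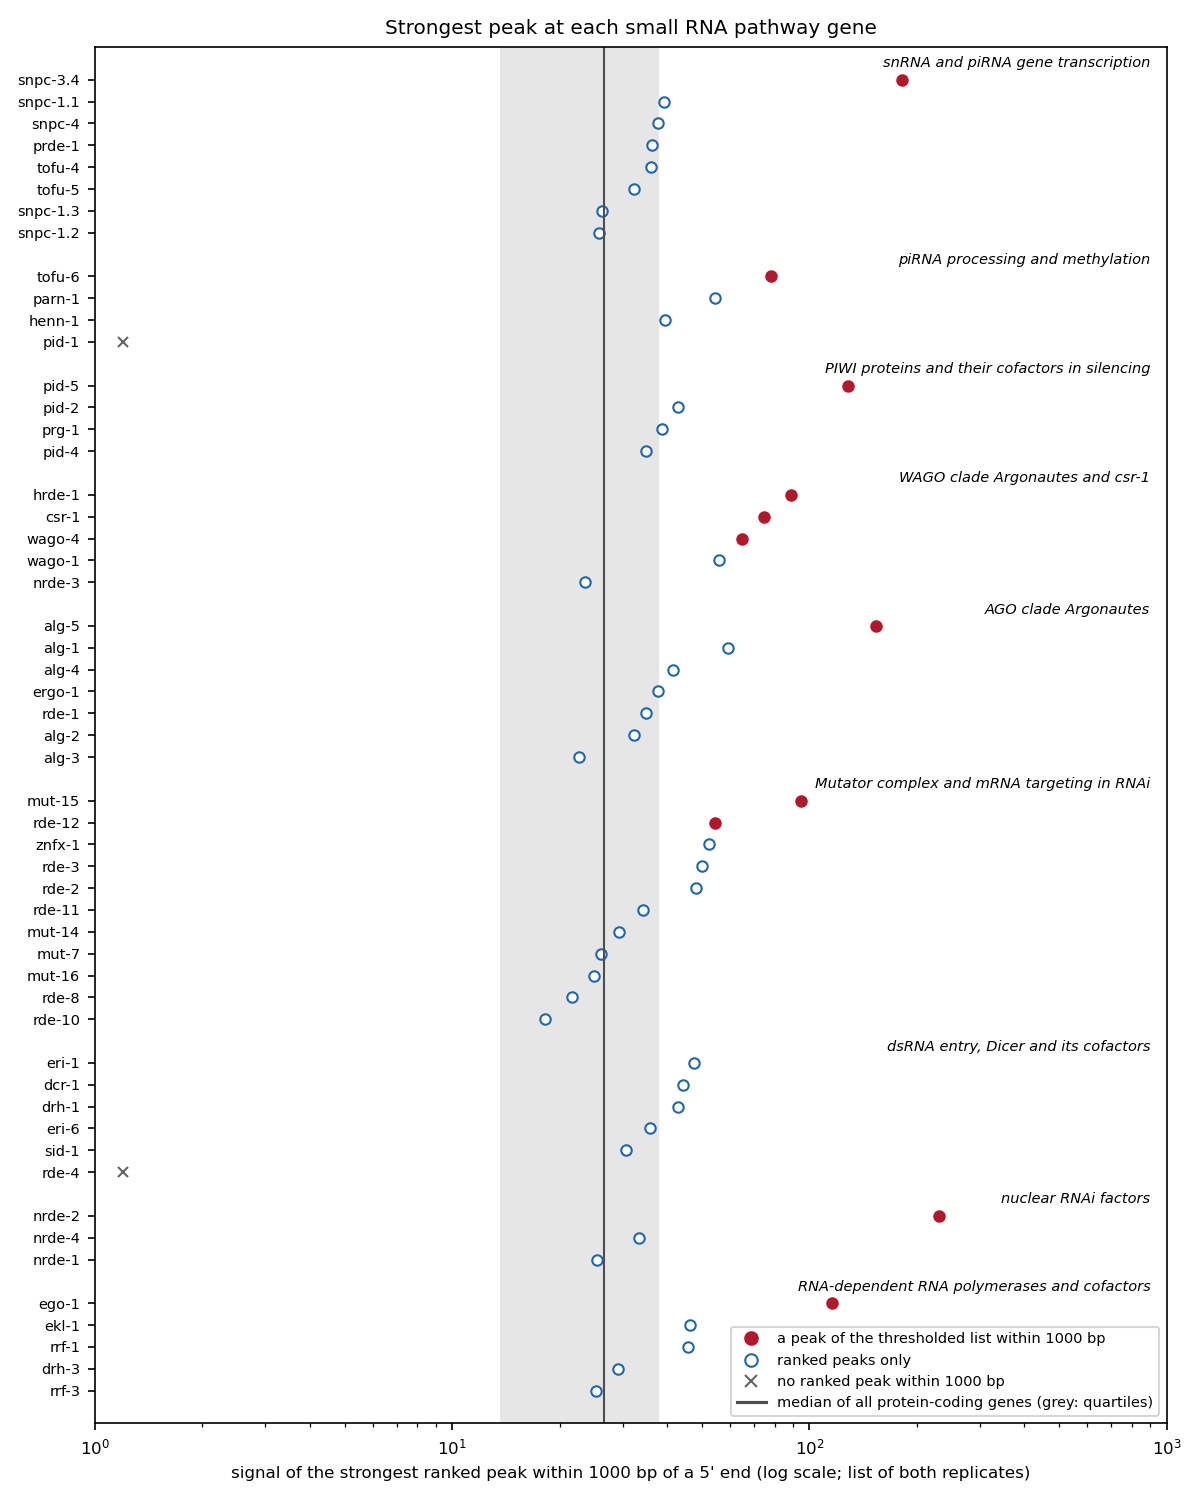
Signal of the strongest peak of the ranked list of both replicates within 1000 bp of a 5′ end of each of the 53 genes, on a log axis, grouped by role. Filled points are genes with a site, and open points have ranked peaks only. At rde-12 the filled point is a peak that missed the threshold (54.4), as its site had a lower signal (32.1). Crosses mark pid-1 and rde-4, which had no ranked peak and have no value on the axis. The line and grey band are the median (26.7) and quartiles (13.7 to 37.8) of all protein-coding genes.

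Read over all genes without the threshold, 51 of the 53 genes had at least 1 peak of the ranked list of both replicates within 1000 bp (96.2%), against 79.5% of all protein-coding genes. In the ranked list of replicate 1 it was 49 genes (92.5% against 61.2%) and in that of replicate 2 it was 47 (88.7% against 63.5%). The strongest such peak had a median signal of 38.8 over the 53 genes, with a gene without a peak counted as 0, and of 26.7 over all genes. Above the median of all genes lay 41 of the 53, and with the single lists 47 and 41. The medians were 19.8 against 13.8 in replicate 1 and 19.5 against 14.1 in replicate 2. Most of these peaks were far below the threshold and no test was run on them. Among the genes with a site, the strongest site had a median signal of 94.7, against 86.0 over all 1291 genes with a site.

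The replicates held the 14 sites to different degrees. A thresholded peak of each replicate overlapped 4 of them (28.6%, against 23.4% of all 1694 peaks), namely the sites of snpc-3.4, alg-5 and pid-5 and the stronger site of nrde-2. Replicate 1 alone held 3, at mut-15 and csr-1, and replicate 2 alone held 4, at ego-1, hrde-1 (the stronger), tofu-6 and nrde-2 (the weaker). The remaining 3, at wago-4, rde-12 and the weaker of hrde-1, overlapped a thresholded peak of neither (21.4%, against 45.8% of all peaks). In the conservative list 8 of the 14 were found (57.1%), against 77.3% of all 1694. So a smaller share of these sites than of all peaks was kept there. The 1694 also include peaks farther from the start of any gene, and the part of position in these shares was not tested.

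**Figure D3:**
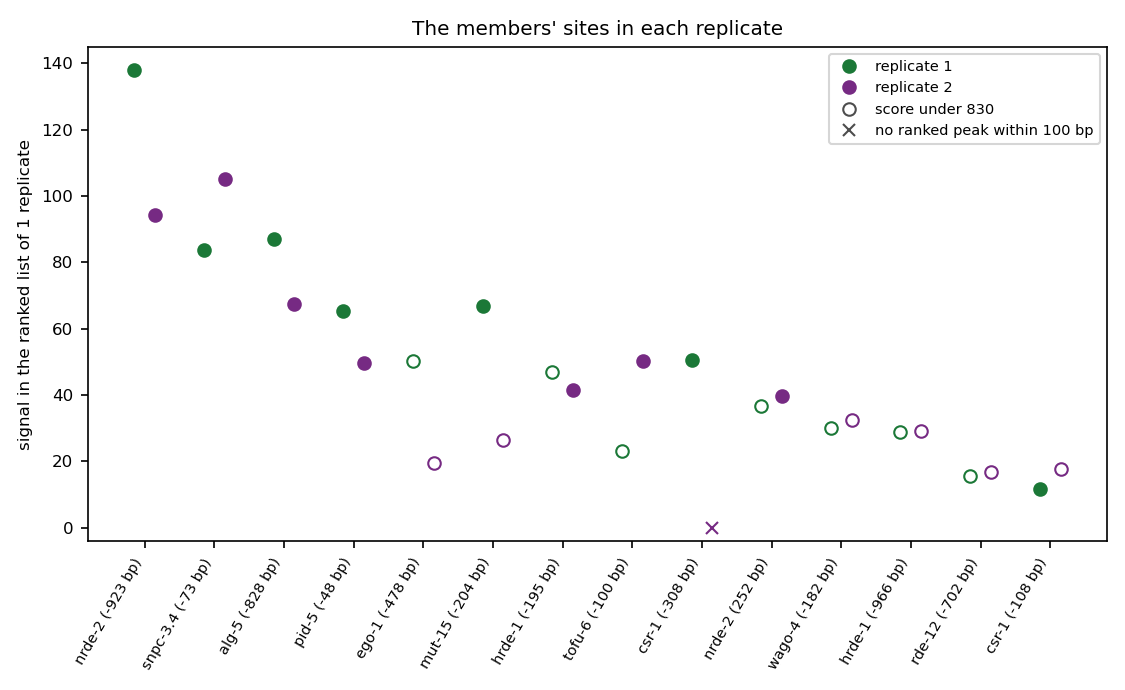
Signal in the ranked list of each replicate at the 14 sites, ordered by signal in the list of both replicates, with the position of the summit from the 5′ end in parentheses. Filled points have a score of at least 830, and a cross marks a site with no ranked peak within 100 bp. The sites of nrde-2 (923 bp upstream), snpc-3.4, alg-5 and pid-5 are filled in both replicates, with signals from 49.7 to 138. At ego-1 the peak of replicate 2 that passed lay over 100 bp away and is not drawn.

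The sites lay mostly upstream. Of the 14, 13 were upstream of the nearest 5′ end of their gene, and 10 lay within 500 bp of it, with a median position of -200.0 bp. Both sites of csr-1 are among the 13. They lay inside the gene and were upstream only of the 5′ end of its shorter transcript. The same window gave 1475 pairs of a peak and a gene over the whole list, of which 72.2% were upstream of the gene and 66.5% within 500 bp. A neighbouring gene shared the window at 9 of the 14 sites (64.3%), against 53.8% of the 1475 pairs. For 5 of these the summit was upstream of both genes, which are on opposite strands, as at pid-5 and coh-4 or at mut-15 and fib-1. At 5 sites the 5′ end of the other gene was the closer. Between protein-coding genes lay 10 of the 14 summits (71.4%), against 64.1% of the pairs. No summit was within 250 bp of an annotated non-coding gene or pseudogene (0 of 14), whereas that of 19.3% of the pairs was. Just inside the window were the weaker site of hrde-1 (966 bp) and the stronger of nrde-2 (923 bp). Just outside it the nearest peak of a gene with no site was 2070 bp downstream of the 5′ end of pid-2 (signal 76.0), in a coding exon of Y48G1C.13, and the next was 2831 bp downstream of that of ekl-1 (signal 107).

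**Figure D4:**
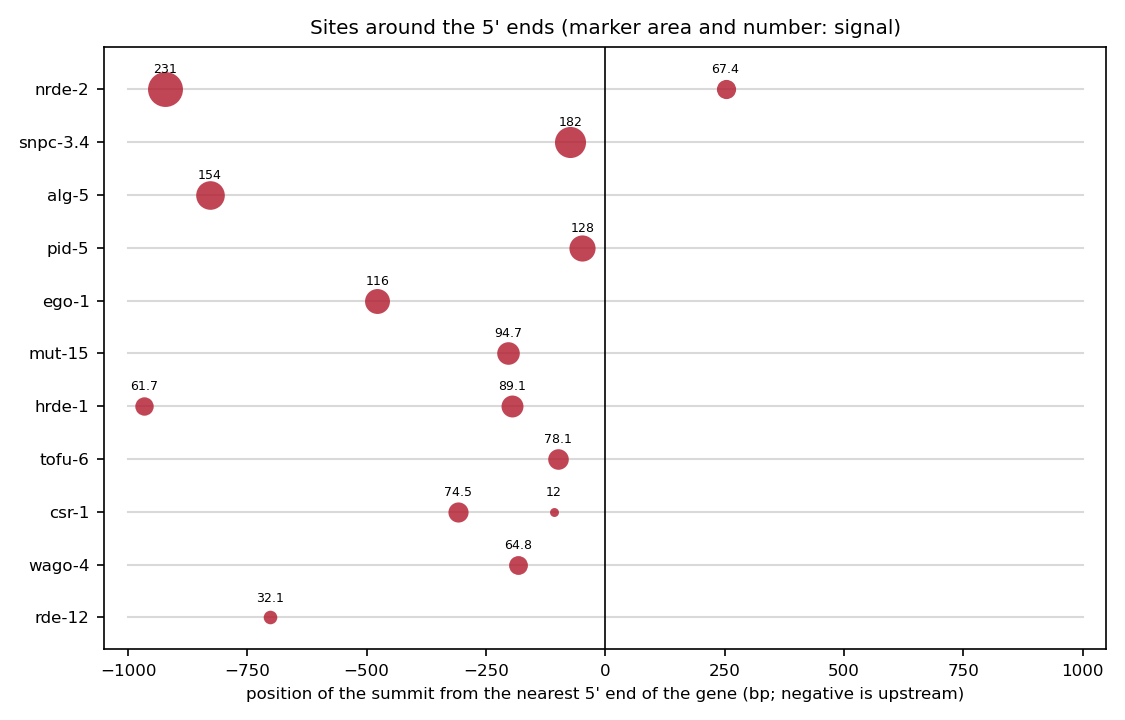
Position of the 14 summits relative to the nearest annotated 5′ end of each gene, in bp, with upstream to the left. The area of a point and the number above it give the signal in the list of both replicates, from 12 at csr-1 to 231 at nrde-2. Only the weaker site of nrde-2 lies downstream of the nearest 5′ end. The sites of csr-1, drawn upstream, lie inside the gene.

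A second list held 72 further genes of the same pathways, chosen by name. Of these, 12 had a site (16.7%, against 6.46% of all genes). The microRNA genes had 5 of 12. These were vig-1, a component of the silencing complex (215), nhl-2, a cofactor of that complex (194), the exonuclease gene xrn-2 (136), the GW182 homolog ain-1 (92.7) and lin-28, which blocks let-7 processing (82.4). The germ granule genes had 4 of 15, namely pgl-3 (143), lotr-1 (135), the Vasa homolog glh-2 (130) and deps-1 (62.0). Of 12 further piRNA biogenesis genes, snpc-3.1 (74.6), a paralog of snpc-3.4, and tofu-1 (59.6), which belongs to the enzyme that cuts piRNA precursors, had a site. The remaining groups had simr-1 (118), 1 of 26 further silencing genes, and 0 of 7 further Argonaute genes. At nhl-2, simr-1, tofu-1, snpc-3.1 and deps-1 the 5′ end of another gene was closer to the summit. The conservative list held 8 of the 72 genes (11.1%, against 5.94% of all genes), without tofu-1, snpc-3.1, deps-1 and ain-1. The sites of tofu-1 and deps-1 passed the threshold in neither replicate. The paralogs differed in rank, with snpc-3.4 at 86 and snpc-3.1 at 961, and at snpc-3.1 the replicates had 55.1 and 18.2. Whether reads were shared between the paralogs was not tested.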

How the data were processed

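Per the file headers, the deposited peak lists were made from alignments of the immunoprecipitation and of a control library on assembly ce11. Chromatin had been sonicated to 200 to 800 bp, per the labels. Which aligner and peak caller were used is not stated in the files at hand. The signal and score of each peak are the authors' deposited values, and the −log10 of the irreproducible discovery rate in the deposited ranked lists gave the rate that belongs to a score. Read totals are not part of peak lists, so depth and counting precision are unknown. Untagged animals and the control reads were not used here.

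Ensembl release 115 on WBcel235 gave the 5′ ends of 19973 protein-coding genes, and RefSeq the symbols of 19965. Peaks were joined to every gene with a 5′ end within 1000 bp of the summit. The joining was tested on simulated summits. No test of significance was run, since the members and lists were chosen with earlier results of these data known. All 53 genes were given by role, and other pathway genes where they had a site. Alternatives were other windows, lists, 5′ ends, overlaps and assignment to the nearest gene. Python 3.11.15 with numpy 2.4.6, pandas 2.3.3 and matplotlib 3.10.9 was used.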

Additional observations from a re-analysis of the deposited data

How the results depend on the processing

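The count of 11 genes with a site among the 53 fell to 7 with the conservative list and to 7 with the peaks at or above the median signal of the list (13.2%, against 3.84% of all protein-coding genes). Without replicate 1 or without replicate 2 it was 7 to 7, and the share of all protein-coding genes also fell. A site at snpc-3.4, pid-5 and nrde-2 was found under each of the 10 alternatives. The count of 12 among the 72 other pathway genes was 7 when a peak counted only for the gene with the nearest 5′ end. That was 9.72% of them, against 4.76% of all protein-coding genes, whose share also fell. The median signal of the genes with a site was 89.1 with a window of 500 bp and 128 with the conservative list. The cause of these changes was not tested. The 4 of 14 sites found in both replicates stayed at 4 with an overlap of at least 50% and with summits within 100 bp. A count of 11 was also found with every ranked peak that reaches the score of the threshold, a setting chosen after seeing the data. This setting nearly repeats the thresholded list, with 1296 against 1291 of all protein-coding genes having a site, so it is no separate check. It is 1 of the 10 alternatives. Of 110 counts of sites at single genes under the alternatives, that setting included, 76 were within 1.5 times of the reported count. No paired analysis was possible because there was only 1 group. Depth is unknown, so a missing site shows only that no peak passed the threshold.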

Other observations

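The piRNA genes themselves were looked at beside the genes for their machinery. The annotation holds 14714 piRNA genes on chromosome IV. Of the 300 peaks of the thresholded list on that chromosome, 7 (2.33%) had a summit within 250 bp of the first coordinate of a piRNA gene. Among the 14314 ranked peaks of the same chromosome that lay under the threshold, 995 did (6.95%). On the other chromosomes, with 78 to 202 piRNA genes each, 0 to 4 peaks of the thresholded list lay that close. Of their ranked peaks under the threshold, 0.223% to 0.438% did. What part of each chromosome lies that close to a piRNA gene was not measured, so the shares have no background to be read against. They were not tested.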
